A study of Mus musculus with 21 samples.

Results

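The genes described here encode 10 proteins of the lipid droplet and its lipases, namely the perilipins Plin2, Plin3 and Plin5, the CIDE proteins Cideb and Cidec, the lipase regulators Hilpda and G0s2, and the lipid enzymes Pnpla2, Pnpla3 and Mgll. Members were the probes to which the platform annotation gives one of these symbols. All 10 genes had a probe, in all 14 probes, and all 14 passed the filter on detection, so that 10 of the 11442 genes tested are members. Hilpda, Cidec and Mgll lie on chromosome 6, Plin3 and Plin5 on chromosome 17, and Plin2, Cideb, G0s2, Pnpla2 and Pnpla3 on chromosomes 4, 14, 1, 7 and 15 (GRCm38.p6). Liver mRNA was measured on Illumina mouse beadchips, 1 array for each of 21 female CD-1 mice aged 3 months. The 3 control mice were untreated. In 9 mice, 70% of the liver mass was removed by partial hepatectomy (PH), and 9 mice received TCPOBOP (TCP), which activates the nuclear receptor CAR, by gavage at 3 mg/kg in dimethyl sulfoxide and corn oil. Livers were taken 1, 3 and 6 h later, with 3 mice per treatment and time. None of the groups was sham-operated, given the vehicle alone or taken as a control at 1, 3 or 6 h, and the same 3 control arrays serve every comparison with control.

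Hepatocytes store triglyceride in lipid droplets, which are coated by perilipins. PLIN2 and PLIN3 coat droplets in most cells, and PLIN5 is known from oxidative tissues, where it links droplets to mitochondria. CIDE proteins act in droplet fusion and growth and, for CIDEB, in the lipidation of secreted lipoproteins. PNPLA2 (adipose triglyceride lipase) takes the first fatty acid from triglyceride and is held back by the small proteins G0S2 and HILPDA, while MGLL cleaves the last fatty acid from monoglyceride. PNPLA3 is a droplet protein related to PNPLA2. After PH the remaining liver is known to accumulate fat for a short time before hepatocytes divide.

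The promoter windows of Plin5 and Hilpda, the members with the most calls against control, are shown. Both were called higher at 3 and 6 h after PH, and their signals had a Pearson correlation of 0.23 over the 21 arrays. The windows searched were the 250 bases before the more upstream of the 2 starts that the promoter table lists for each gene (RefSeq, GRCm38.p6). The RefSeq gene record of Plin5 begins upstream of that start, at 56117606, so that the last 58 bases of its window lie inside the annotated gene, and the 192 bases before the gene are shown. For Hilpda the start and the gene record coincide, and the whole window is shown. The bases are written 5′ to 3′ on the strand of the gene, with capitals for matches to the motifs searched. Plin5 lies on the minus strand of chromosome 17 with the shown bases at chr17:56117607-56117798, and Hilpda on the plus strand of chromosome 6 at chr6:29272238-29272487.
Plin5: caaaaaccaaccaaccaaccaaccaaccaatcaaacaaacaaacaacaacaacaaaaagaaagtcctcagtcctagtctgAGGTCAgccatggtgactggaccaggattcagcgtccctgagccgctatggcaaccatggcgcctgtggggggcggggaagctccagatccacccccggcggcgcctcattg
Hilpda: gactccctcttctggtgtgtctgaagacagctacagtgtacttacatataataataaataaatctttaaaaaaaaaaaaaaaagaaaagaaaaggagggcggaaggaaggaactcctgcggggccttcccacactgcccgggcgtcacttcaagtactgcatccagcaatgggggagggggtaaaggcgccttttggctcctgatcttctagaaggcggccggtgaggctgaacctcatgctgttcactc
The motifs, searched on both strands, were the HIF cores ACGTG and GCGTG, the nuclear receptor hexamer AGGTCA, the AP-1 site TGANTCA, the C/EBP site TTGCNNAA and the FOXO site TGTTTAC. The Plin5 window held AGGTCA at 165 to 170 bases, GCGTG at 50 to 54 bases and TGANTCA at 5 to 11 bases before the listed start, the latter 2 inside the annotated gene, and none of these overlapped another. The Hilpda window held none of the 6 motifs in these letters. Of 32851 promoter windows of this length, 16.6% held ACGTG, 28.2% GCGTG, 14.0% AGGTCA, 6.75% TGANTCA, 9.56% TTGCNNAA and 3.17% TGTTTAC. Among the 10 members, 5 windows held GCGTG (Plin2, Plin5, G0s2, Pnpla3 and Mgll), 2 held AGGTCA (Plin2 and Plin5), and 1 window each held ACGTG (Mgll), TGTTTAC (Mgll) and TGANTCA (Plin5). None of the 10 held TTGCNNAA.

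Signals are given as log2 of the background-corrected, quantile-normalised intensity of the brightest probe of a gene, listed by replicate 1, 2 and 3. Changes are differences of group means on this scale with the standard error (SE) of 1 limma model of the 7 groups. A gene was called, and is said to rise or fall, where the Benjamini-Hochberg adjusted p over all 11442 genes was under 0.05 and the change at least 1.5-fold. Between 15982 and 17973 probes were detected per array. The arrays lay on 4 beadchips, each of which held 1 or no control, and PH and TCP arrays of the same time were never on the same beadchip. All PH 1 h arrays lay on beadchip 3, all PH 6 h arrays on beadchip 4 and all TCP 6 h arrays on beadchip 1. Each call is therefore given also with the beadchip as a block (written "block") and, where a beadchip held both groups, as the untested change within it. All 6 hepatocyte markers examined were detected on every array of every group, with a summed linear signal of 81214 to 120249, and none was called in any comparison. Among adipocyte markers Lep was detected on 6 arrays and was called in no comparison, Adipoq was detected on 1 array, Plin1 and Retn on 0 arrays, and no probe carried the symbol Cfd. Neutrophil markers moved with PH. Their summed signal was 127 to 155 in control liver, 291 to 2105, 1149 to 2488 and 518 to 896 on the PH arrays of 1, 3 and 6 h, and 187 to 488, 189 to 435 and 210 to 244 on the TCP arrays, and 2, 3 and 3 of the 5 tested were called higher at the 3 times after PH. Of 4 bile duct markers listed, Krt19 was detected on 1 array and Epcam on 0 arrays, and neither was tested. The 2 tested reached a log2 signal of at most 6.14 (Krt7) and 12.66 (Sox9), so that their summed signal was mainly that of Sox9. Of these 2, 1 was called higher at 3 h after PH. The summed signal was then 772 to 6528, beside 285 to 378 in control liver. It was 326 to 498 and 465 to 1640 at 1 and 6 h after PH and 151 to 432 on all TCP arrays. Of 5 endothelial markers 1 was called higher at 3 h and 2 at 6 h after PH, with a summed signal of 4668 to 5467 in control liver, 4003 to 4759 at 3 h and 2681 to 6375 at 6 h. Of 6 stellate cell markers 1 was called higher at 3 h and 1 lower at 6 h after PH, with a summed signal of 3835 to 4712 in control liver, 4162 to 4735 at 3 h and 3108 to 5688 at 6 h. None of the 5 macrophage markers tested was called against control by limma, and no bile duct, endothelial or stellate cell marker was called against control after TCP. Between PH and TCP at the same time, 1 macrophage marker was called higher after PH at 1 h and 1 lower at 6 h. At 1 h the summed macrophage signal was 1281 to 3524 after PH and 597 to 841 after TCP. At 6 h it was 694 to 1248 and 1366 to 3071. Called higher after PH than after TCP were also 3 neutrophil markers and 1 bile duct marker at 3 h, and 2 neutrophil markers and 1 endothelial marker at 6 h. The part of these cells in the results below was not tested. PH 3 h replicate 2 stood apart, since its mean correlation with the PH 1 h arrays (0.980) was above that with its own group (0.972). In a bulk liver sample, a change in the number of cells of a type and a change in RNA per cell cannot be told apart.

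Across the members, the number of calls grew over time after PH, as did the share of all genes called. After TCP no more members were called at any time than after PH, and fewer of all genes were. At 1 h after PH 1 of 10 members was called, against 0.402% of all genes tested. At 3 h 2 of 10 were called, against 7.43% of all genes. At 6 h 5 of 10 were called, all higher, against 20.8% of all genes, and the median change of the members was 0.58 beside -0.08 for all genes. After TCP, limma called 0 members at 1 h (3 at an unadjusted p under 0.05, where 8.04% of all genes were, and 0.184% of all genes called), 2 at 3 h (1.22% of all genes) and 1 at 6 h (5.31% of all genes). A moderated F test over the 3 times against control called 6 members after PH (Hilpda, Plin2, Plin5, Cidec, Pnpla2 and Mgll), against 21.2% of all genes, and 4 after TCP (Plin3, Plin5, Pnpla2 and Pnpla3), against 5.21%. The 6 members after PH were called also on the authors' values and whichever array was left out, and with the block 2 of them were (Hilpda and Plin5). Of the 4 after TCP none was called with the block (limma adjusted p = 0.135 to 0.341) and 2 on the authors' values (Plin5 and Pnpla2), and of the 12 fits without 1 array Plin3 and Plin5 were called in 12, Pnpla2 in 8 and Pnpla3 in 2. Cideb and G0s2 were called in none of the comparisons. The arrays of PH and control did not overlap for 4, 4 and 6 members at 1, 3 and 6 h, and for 22.1%, 28.9% and 37.9% of all genes. For TCP and control it was 5 members at each time, and 19.5%, 22.2% and 34.0% of all genes. For PH and TCP it was 3, 1 and 7 members, and 15.8%, 19.6% and 26.0% of all genes. Of the 22 calls of members over 13 pairwise comparisons, 2 were kept with the beadchip as a block, 15 on the values normalised by the authors and 10 whichever array was left out, and all 22 kept their sign in these block and left-out fits.

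**Figure D1:**
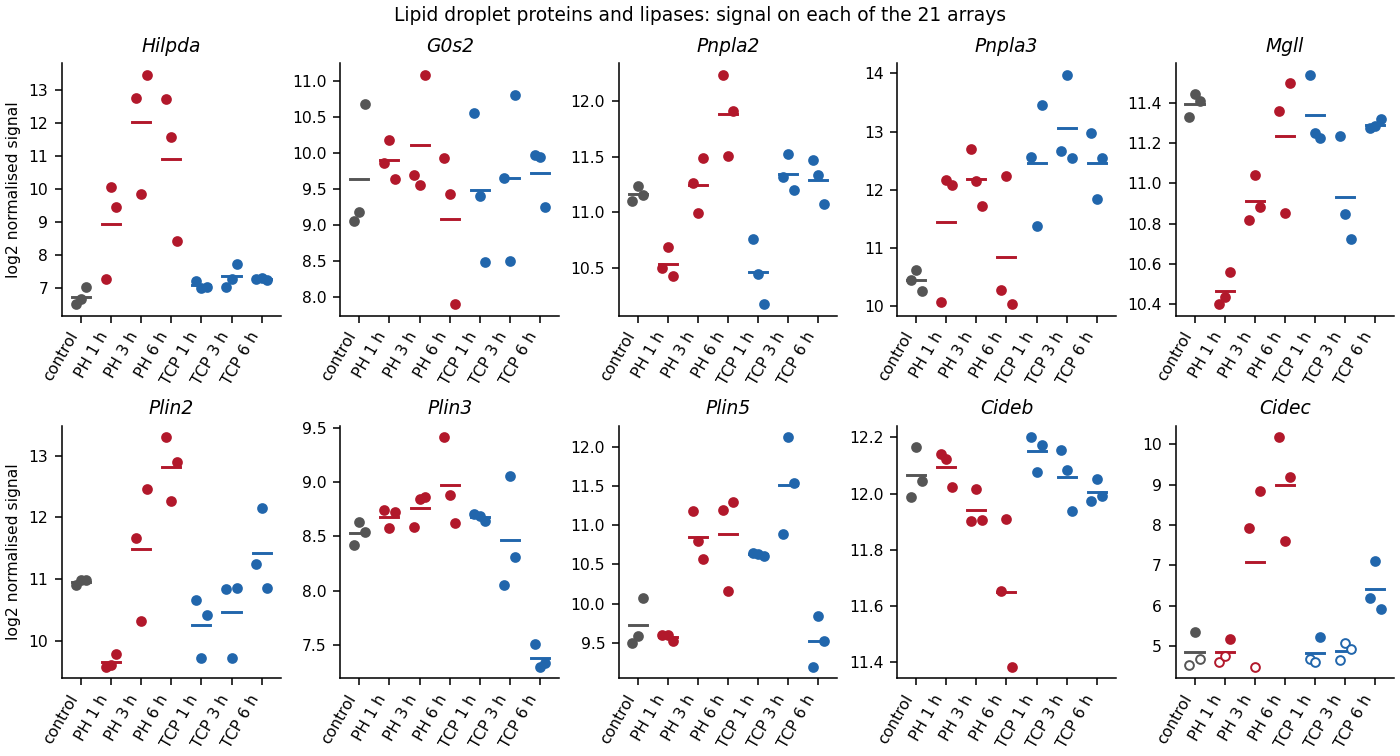
Log2 normalised signal (y axis) of each member on the 21 arrays by group (x axis), with 1 point per mouse, a line at the group mean, and open points where the detection p was 0.05 or over. Hilpda separates into 3 wide PH groups and narrow control and TCP groups, while Cideb stays between 11.38 and 12.20 on all arrays.

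The lipase regulator Hilpda had the widest range of the members. HILPDA, named for its induction by hypoxia, binds PNPLA2 and slows triglyceride breakdown. Control arrays read 6.50, 6.66 and 7.01. Arrays read 7.26, 10.06 and 9.46 at 1 h after PH, 12.75, 9.84 and 13.47 at 3 h, then 12.74, 11.57 and 8.43 at 6 h. All 9 PH arrays lay above all control arrays, and the PH groups were wide, with an SD of 1.47, 1.92 and 2.23 (n = 3) beside 0.26 in control liver. After TCP the arrays read 7.21, 6.98 and 7.02, then 7.04, 7.27 and 7.73, and then 7.26, 7.30 and 7.24, so that no TCP group passed the test. Hilpda rose 39.3-fold 3 h after PH (log2 change 5.30, SE 0.89, limma adjusted p = 0.00106) and 18.2-fold at 6 h (4.19, SE 0.89, limma adjusted p = 0.00246). The change of 2.20 (SE 0.89) at 1 h was not called (limma adjusted p = 0.344). With the block the 3 h rise was 5.48 (limma adjusted p = 0.00681) and the 6 h change 3.48 (limma adjusted p = 0.0556), which ended the 6 h call. Within a beadchip the change was 4.64 and 6.46 at 3 h and 3.90 at 6 h. On the authors' values the rises were smaller, 3.67 at 3 h (limma adjusted p = 0.0131) and 2.71 at 6 h (limma adjusted p = 0.0232), and both were called. Both calls were kept in every fit without 1 array, at 4.57 to 6.38 for 3 h, the highest without PH 3 h replicate 2, and 3.27 to 5.43 for 6 h.

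The second Hilpda probe moved in the same direction. It changed by 4.37 (SE 0.87, limma adjusted p = 0.0052 among the 17970 kept probes) at 3 h and by 3.43 (SE 0.87, limma adjusted p = 0.00927) at 6 h after PH. Both probes were called in the same 2 comparisons with control.

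G0s2, the other inhibitor of PNPLA2, showed no call and a wide spread between mice in most groups. Its SD was 0.27 at 1 h after PH and 0.41 at 6 h after TCP, and 0.85 to 1.15 in the other groups. Control arrays read 9.05, 9.18 and 10.67. PH arrays read 9.86, 10.18 and 9.64 at 1 h, 9.70, 9.55 and 11.09 at 3 h, then 9.93, 9.43 and 7.90 at 6 h. TCP arrays read 10.55, 9.40 and 8.48 at 1 h, 9.65, 8.51 and 10.81 at 3 h, then 9.97, 9.94 and 9.25 at 6 h. Every treated group overlapped the control arrays. The changes against control lay between -0.55 (PH 6 h) and 0.48 (PH 3 h), each with an SE of 0.62, so that changes of this size were not detectable with 3 arrays per group.

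Pnpla2, the lipase on which both inhibitors act, was lower at 1 h after either treatment and higher at 6 h after PH. Control arrays read 11.11, 11.23 and 11.16. PH arrays read 10.51, 10.69 and 10.43 at 1 h, 11.26, 11.00 and 11.49 at 3 h, then 12.23, 11.51 and 11.91 at 6 h. TCP arrays read 10.76, 10.45 and 10.18 at 1 h, 11.32, 11.52 and 11.20 at 3 h, then 11.47, 11.34 and 11.08 at 6 h. All 6 arrays at 1 h lay below the control arrays, with changes of -0.63 (SE 0.20, limma adjusted p = 0.199) after PH and -0.70 (SE 0.20, limma adjusted p = 0.224) after TCP, and neither was called. At 6 h after PH, Pnpla2 rose by 0.72 (SE 0.20, 1.64-fold, limma adjusted p = 0.0134), and all 3 arrays lay above the controls. The block value was 0.69 (limma adjusted p = 0.0825) and the change within a beadchip 0.72. Without PH 6 h replicate 1 the change was 0.54 and was not called (limma adjusted p = 0.0829). The F test over the 3 times called Pnpla2 after PH (limma adjusted p = 0.000912) and after TCP (limma adjusted p = 0.0246), the latter with its largest change at 1 h. Neither call was kept with the block (limma adjusted p = 0.077 and 0.212). The TCP call also ended without control replicate 2, TCP 1 h replicate 2, TCP 1 h replicate 3 or TCP 6 h replicate 2, with limma adjusted p up to 0.116.

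Pnpla3, which acts on triglyceride and retinyl esters and is known to be induced by feeding, was higher than control on all 9 TCP arrays. Control arrays read 10.44, 10.62 and 10.25. TCP arrays read 12.56, 11.37 and 13.45 at 1 h, 12.66, 13.98 and 12.55 at 3 h, then 12.97, 11.84 and 12.55 at 6 h. PH arrays read 10.06, 12.17 and 12.08 at 1 h, 12.70, 12.14 and 11.71 at 3 h, then 10.26, 12.23 and 10.03 at 6 h, so that the PH groups at 1 and 6 h spanned the control level. At 3 h after TCP Pnpla3 rose by 2.63 (SE 0.62, 6.18-fold, limma adjusted p = 0.0423). The changes of 2.03 at 1 h (limma adjusted p = 0.293) and 2.02 at 6 h (limma adjusted p = 0.0613) were not called, nor was that of 1.75 at 3 h after PH (limma adjusted p = 0.097). The TCP 3 h call ended with the block (3.23, limma adjusted p = 0.185), on the authors' values (2.55, limma adjusted p = 0.0686) and in each of the 6 fits without 1 array of the comparison, at 2.17 to 2.88. The change within a beadchip was 2.22.

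Mgll, the monoglyceride lipase, was lowest at 1 h after PH. Control arrays read 11.33, 11.44 and 11.41. PH arrays read 10.40, 10.44 and 10.56 at 1 h, 10.82, 11.04 and 10.88 at 3 h, then 11.36, 10.85 and 11.50 at 6 h. TCP arrays read 11.54, 11.25 and 11.23 at 1 h, 11.23, 10.85 and 10.72 at 3 h, then 11.27, 11.28 and 11.32 at 6 h. The 3 PH 1 h arrays lay below all other arrays. Mgll fell by 0.93 on the log2 scale (SE 0.17, 1.90-fold, limma adjusted p = 0.0194) at 1 h after PH, while the changes of -0.48 at 3 h after PH (limma adjusted p = 0.105) and -0.46 at 3 h after TCP (limma adjusted p = 0.232) were not called. The block value was -0.94 (limma adjusted p = 0.219) and that within a beadchip -0.98. The call ended without control replicate 1 (-0.96, limma adjusted p = 0.0746), control replicate 2 (-0.90, limma adjusted p = 0.118), control replicate 3 (-0.92, limma adjusted p = 0.0502), PH 1 h replicate 2 (-0.91, limma adjusted p = 0.0596) or PH 1 h replicate 3 (-0.97, limma adjusted p = 0.0827). Of the other probes of Mgll, 1 was also called at 1 h after PH (-1.32, SE 0.28, limma adjusted p = 0.047) and 1 was not (-0.70, SE 0.23, limma adjusted p = 0.237).

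**Figure D2:**
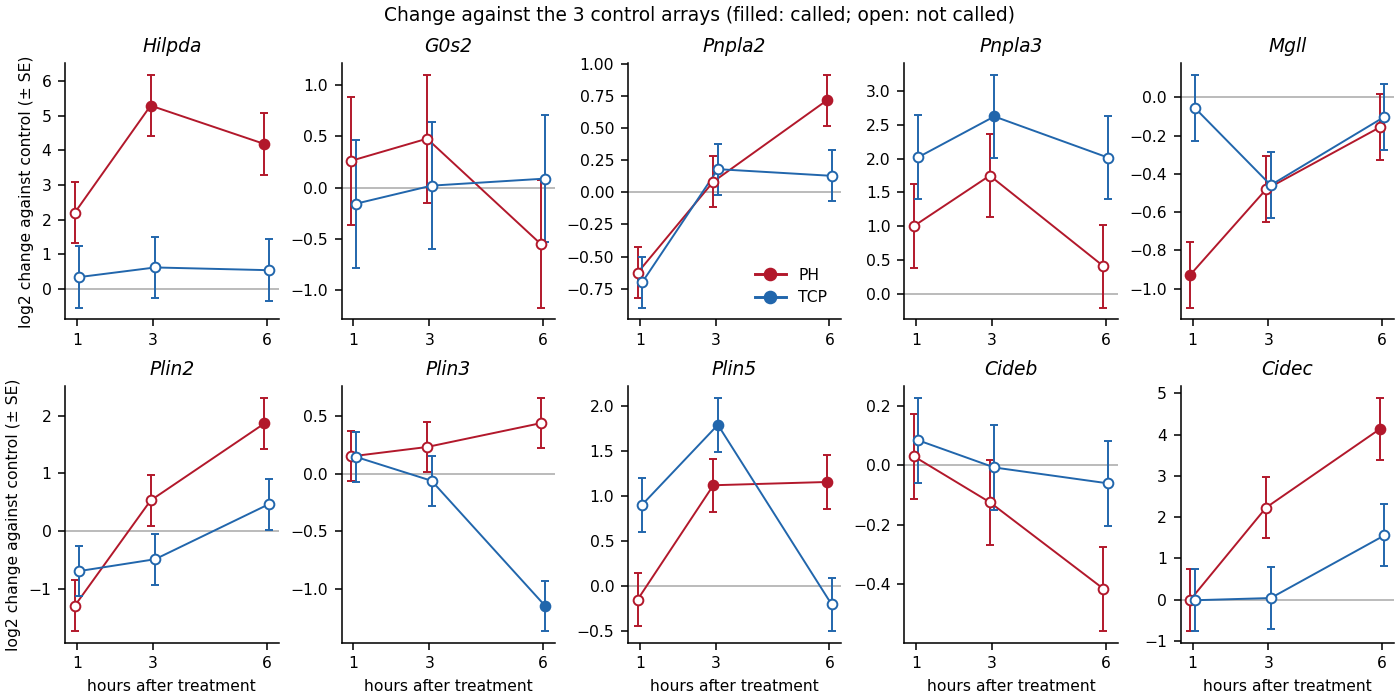
Log2 change against the control arrays (y axis, ± SE) at 1, 3 and 6 h (x axis) after PH (red) and TCP (blue) for each member, with filled points where the change was called. Hilpda reaches 5.30 at 3 h after PH, Cidec 4.13 and Plin2 1.86 at 6 h, and Pnpla3 2.63 at 3 h after TCP.

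Among the perilipins, Plin2, the most abundant droplet coat of hepatocytes, passed from below to above the control level after PH. Control arrays read 10.90, 10.98 and 10.98. PH arrays read 9.58, 9.61 and 9.79 at 1 h, 11.67, 10.33 and 12.46 at 3 h, then 13.30, 12.26 and 12.90 at 6 h. TCP arrays read 10.66, 9.72 and 10.41 at 1 h, 10.84, 9.72 and 10.85 at 3 h, then 11.25, 12.15 and 10.86 at 6 h. The 1 h PH arrays lay below and the 6 h PH arrays above all controls, and the 3 h arrays lay on both sides. All 6 TCP arrays of 1 and 3 h also lay below the lowest control, with changes of -0.69 (limma adjusted p = 0.766) and -0.49 (limma adjusted p = 0.687) that were not called. The change at 1 h was -1.29 (SE 0.44, limma adjusted p = 0.246) and was not called. Between 1 and 3 h after PH, Plin2 rose by 1.82 (SE 0.44, 3.54-fold, limma adjusted p = 0.0424). At 6 h Plin2 rose over control by 1.86 (SE 0.44, 3.64-fold, limma adjusted p = 0.00514). The 6 h rise was 1.54 with the block (limma adjusted p = 0.0718), 1.84 within a beadchip and 1.62 to 2.14 in the fits without 1 array, all of which kept the call. The step from 1 to 3 h was 1.57 with the block (limma adjusted p = 0.217) and 1.33 within a beadchip. It was kept without PH 3 h replicate 2 (2.40, the highest of these fits) and ended without any other array of the comparison, with limma adjusted p = 0.144, 0.107 and 0.0891 without PH 1 h replicates 1, 2 and 3 and 0.161 and 0.291 without PH 3 h replicates 1 and 3, at changes of 1.78, 1.80, 1.89, 1.73 and 1.33.

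Plin5 was called against control in 3 of 6 comparisons, more than any other member, and in groups of both treatments. Control arrays read 9.50, 9.59 and 10.08. TCP arrays read 10.65, 10.63 and 10.61 at 1 h, 10.89, 12.12 and 11.54 at 3 h, then 9.20, 9.85 and 9.53 at 6 h. PH arrays read 9.61, 9.60 and 9.52 at 1 h, 11.18, 10.80 and 10.57 at 3 h, then 11.19, 10.16 and 11.30 at 6 h. On the brighter Plin5 probe, all arrays at 1 and 3 h after TCP and at 3 and 6 h after PH lay above the controls. Those at 1 h after PH and 6 h after TCP overlapped them. On the dimmer Plin5 probe every treated group overlapped the control arrays. Plin5 rose by 1.79 (SE 0.30, 3.46-fold, limma adjusted p = 0.00734) at 3 h after TCP. After PH it rose by 1.12 (SE 0.30, 2.18-fold, limma adjusted p = 0.0259) at 3 h and by 1.16 (SE 0.30, 2.23-fold, limma adjusted p = 0.00875) at 6 h. The change of 0.90 at 1 h after TCP was not called (limma adjusted p = 0.34). Between 3 and 6 h after TCP, Plin5 fell by 1.99 on the log2 scale (SE 0.30, limma adjusted p = 0.00335), against 0.9% of all genes called in this step. Between 1 and 3 h after PH it rose by 1.27 (SE 0.30, limma adjusted p = 0.0379), against 1.69% of all genes.

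These Plin5 calls ended with the block, where the values were 1.64 (TCP 3 h, limma adjusted p = 0.137), 0.95 (PH 3 h, limma adjusted p = 0.0981), 0.97 (PH 6 h, limma adjusted p = 0.0762), -1.49 (TCP 6 h against TCP 3 h, limma adjusted p = 0.235) and 1.26 (PH 3 h against PH 1 h, limma adjusted p = 0.128). Within a beadchip the same changes were 1.39, 1.39 and 0.49, 0.81, -1.37 and 1.41, with values from 2 beadchips for PH 3 h. The rises at 3 h also ended without 1 array. For TCP 3 h they were 1.68 (limma adjusted p = 0.0527) without control replicate 1 and 1.73 (limma adjusted p = 0.0675) without control replicate 2. For PH 3 h they were 1.01 (limma adjusted p = 0.113) without control replicate 1, 1.06 (limma adjusted p = 0.099) without control replicate 2 and 0.96 (limma adjusted p = 0.124) without PH 3 h replicate 1. The step from 1 to 3 h after PH was called without PH 3 h replicate 2 and ended without any other array, at changes of 1.29, 1.28 and 1.24 without PH 1 h replicates 1, 2 and 3 and of 1.11 and 1.41 without PH 3 h replicates 1 and 3. The PH 6 h rise and the fall from 3 to 6 h after TCP were kept in every such fit. The dimmer Plin5 probe gave 0.45 (SE 0.27, limma adjusted p = 0.384) at 3 h after PH and 0.89 (SE 0.27, limma adjusted p = 0.131) at 3 h after TCP, neither called, and 0.78 (SE 0.27, limma adjusted p = 0.0453) at 6 h after PH, called. At 1 h after TCP the brighter probe read 0.90 above control and the dimmer -0.06, so the 2 probes disagreed there. For the step from 1 to 3 h after PH the dimmer probe gave 0.39 (SE 0.27, limma adjusted p = 0.579), not called. On the authors' values this step was 1.06 (limma adjusted p = 0.0733), also not called.

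**Figure D3:**
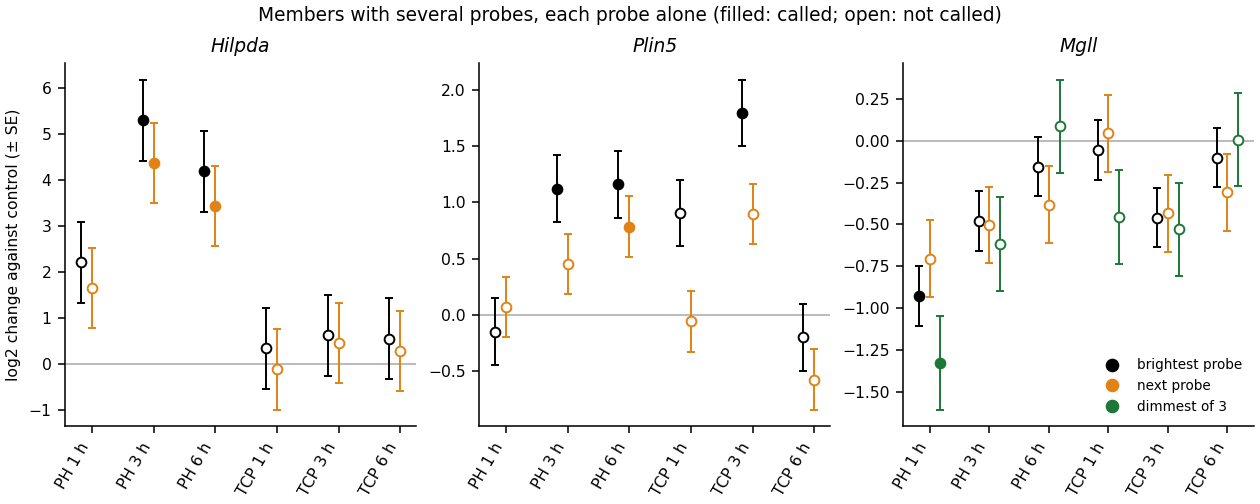
Log2 change against control (y axis, ± SE) of each probe of Hilpda, Plin5 and Mgll in the 6 treated groups (x axis), with filled points where the probe was called among all 17970 kept probes. Both Hilpda probes are filled at 3 and 6 h after PH, whereas the dimmer Plin5 probe is filled only at 6 h after PH, at 0.78.

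Plin3, the third perilipin, was called against control in a single group. Control arrays read 8.42, 8.63 and 8.54. The TCP arrays read 8.70, 8.69 and 8.64 at 1 h, 8.05, 9.05 and 8.31 at 3 h, then 7.51, 7.30 and 7.33 at 6 h. PH arrays lay between 8.58 and 9.41 at all times. The 3 TCP 6 h arrays were the lowest of all 21. All 3 lay on beadchip 1, whose control array (8.42) and TCP 3 h array (8.05) were also the lowest of their groups. Plin3 fell by 1.15 on the log2 scale (SE 0.22, 2.22-fold, limma adjusted p = 0.0052) at 6 h after TCP, and by 1.09 (SE 0.22, limma adjusted p = 0.022) between 3 and 6 h after TCP. The fall against control was -0.96 with the block (limma adjusted p = 0.141) and -1.04 within a beadchip, and it was called in every fit without 1 array. On the authors' values it was -0.53 (limma adjusted p = 0.019), under 1.5-fold. The step from 3 to 6 h was -0.75 with the block (limma adjusted p = 0.536) and -0.67 within a beadchip, and ended without TCP 3 h replicate 2 (-0.80, limma adjusted p = 0.116), TCP 6 h replicate 1 (-1.15, limma adjusted p = 0.0509), TCP 6 h replicate 2 (-1.05, limma adjusted p = 0.104) or TCP 6 h replicate 3 (-1.06, limma adjusted p = 0.0948).

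Of the CIDE genes, Cidec, which drives the growth of large droplets and is known from fatty liver and adipose tissue, was detected on 11 of 21 arrays. The signal was 4.53, 5.36 and 4.67 on the control arrays, of which 1 was above background. PH arrays read 4.62, 4.75 and 5.18 at 1 h, 7.92, 4.49 and 8.84 at 3 h, then 10.18, 7.60 and 9.18 at 6 h, with 1, 2 and 3 arrays detected. TCP arrays read 4.68, 4.62 and 5.22 at 1 h, 4.66, 5.07 and 4.94 at 3 h, then 6.19, 7.11 and 5.93 at 6 h, with 1, 0 and 3 arrays detected. All arrays at 6 h after either treatment lay above the controls, and at 3 h after PH 2 arrays were high while replicate 2 was at the control level. Cidec rose by 4.13 (SE 0.75, limma adjusted p = 0.000742) at 6 h after PH, where all 3 arrays were detected and 2 of the 3 control arrays were not above background. The size of this change depends on the control signal near background, and no linear fold is given for it. The rise was 3.39 with the block (limma adjusted p = 0.029), which kept the call, 4.32 within a beadchip, 3.54 to 4.83 in the fits without 1 array, all called. On the authors' values it was 1.42 (limma adjusted p = 0.00378), also called. At 3 h after PH the change of 2.23 (SE 0.75) was not called (limma adjusted p = 0.0802), and without PH 3 h replicate 2 it was 3.53 (SE 0.52, limma adjusted p = 0.000215). The change of 1.56 at 6 h after TCP was not called (limma adjusted p = 0.247). Since Cidec was not well above background on any TCP 3 h array, the difference to that group is a bound, taken against the higher of the lowest detected signal and the probe's own signal on each array. By group means, PH 3 h was at least 3.89-fold higher (2 arrays detected) and TCP 6 h at least 2.43-fold higher (3 arrays detected) than TCP 3 h, and neither was called. These bounds allow for the background of the TCP 3 h arrays and not for the spread between mice. PH 3 h replicate 2 (4.49) lay below every TCP 3 h array.

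Cideb, which is constitutive in hepatocytes, varied least. Its signal was 11.99, 12.16 and 12.05 on the control arrays and 11.65, 11.91 and 11.38 at 6 h after PH. The 3 PH 6 h arrays lay below all controls, with a change of -0.42 (SE 0.14, 1.34-fold, limma adjusted p = 0.0417), which is under the 1.5-fold limit of a call. In the other 5 treated groups the arrays lay between 11.90 and 12.20 and the change between -0.12 and 0.08.

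PH and TCP were then compared at the same time, which asks whether a member differed between the livers of the 2 treatments. With no sham-operated or vehicle group, removal of tissue cannot be told apart from the operation, nor the drug from gavage and solvent. At 1 h 1 of 10 members differed, against 0.271% of all genes, at 3 h 1 of 10, against 4.36%, and at 6 h 5 of 10, all higher after PH, against 10.3%. For Mgll the PH level at 1 h was below the TCP level, by a log2 difference of -0.87 (limma adjusted p = 0.0361, SE 0.17). This call ended in each of the 6 fits without 1 array, at -0.93 to -0.77, and neither of the other 2 Mgll probes was called. These probes differed in the same direction, by -0.75 (SE 0.23, limma adjusted p = 0.234) and -0.87 (SE 0.28, limma adjusted p = 0.271). Hilpda was higher after PH by 4.67 (SE 0.89, 25.5-fold, limma adjusted p = 0.00519) at 3 h, a call kept whichever array was left out (3.95 to 5.76), and by 3.65 (SE 0.89, 12.5-fold, limma adjusted p = 0.0118) at 6 h. The 6 h difference was 2.73 without PH 6 h replicate 1 and was then not called (limma adjusted p = 0.0754). It was also not called on the authors' values (2.55, limma adjusted p = 0.0544) or when only the groups compared were fitted. All PH arrays lay above all TCP arrays in both, where the arrays did not overlap for 19.6% and 26.0% of all genes.

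The perilipins differed at 6 h. Plin3 was higher after PH by 1.59 (SE 0.22, 3.01-fold, limma adjusted p = 0.000126) and Plin5 by 1.36 (SE 0.30, 2.56-fold, limma adjusted p = 0.00579), both kept in every fit without 1 array. Plin2 was higher by 1.40 (SE 0.44, 2.63-fold, limma adjusted p = 0.0479), which ended without PH 6 h replicate 1 (1.16), PH 6 h replicate 3 (1.36), TCP 6 h replicate 1 (1.31) or TCP 6 h replicate 3 (1.11), and on the authors' values (1.39, limma adjusted p = 0.0543). For Cidec the difference was 2.58 (SE 0.75, 5.96-fold, limma adjusted p = 0.032), which ended without the same 4 arrays, at 1.98, 2.48, 2.46 and 2.34, and was 1.16 on the authors' values (limma adjusted p = 0.024), called. Plin2, Plin5 and Cidec were not called when only the groups compared were fitted, nor were Plin2 and Cidec with no filter on detection or with trend and robust variances. In these 6 h calls the PH arrays and the TCP arrays did not overlap, which was so for 26.0% of all genes. At 1 h all PH arrays of Plin5 lay below the TCP arrays on the brighter probe. The difference of -1.05 (SE 0.30) was not called (limma adjusted p = 0.159). On the dimmer Plin5 probe the arrays overlapped and the difference was 0.13 (SE 0.27, limma adjusted p = 0.957), in the other direction. With the block the 7 differences ranged from -1.01 for Mgll to 5.21 for Hilpda at 3 h and none was called, with limma adjusted p = 0.15 to 0.755, and no beadchip held both groups of any of them.

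**Figure D4:**
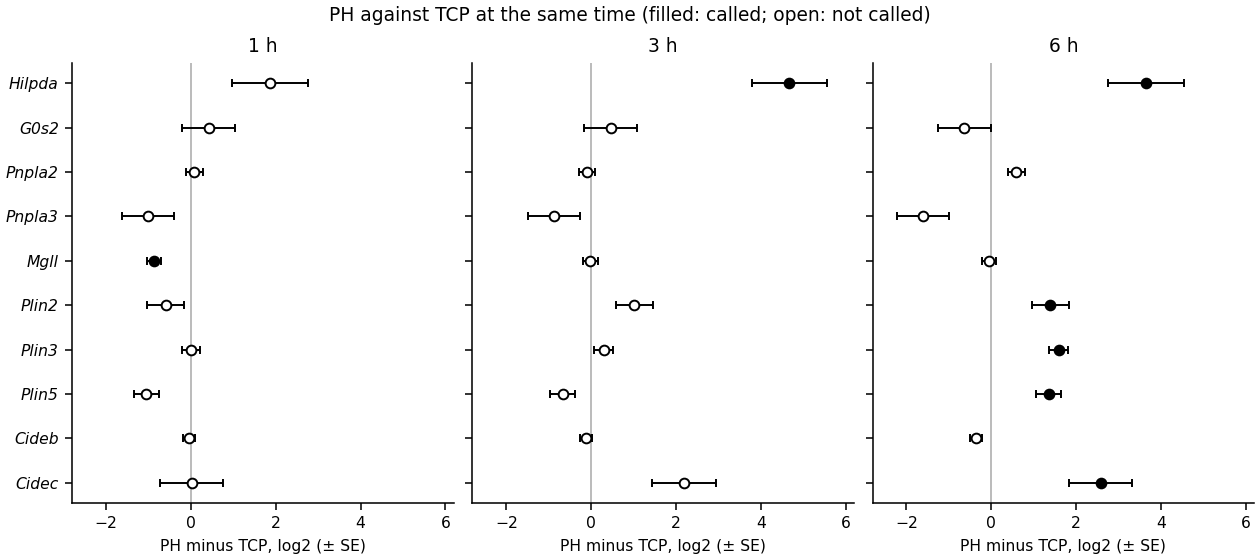
Difference PH minus TCP in log2 signal (x axis, ± SE) of each member (y axis) at 1, 3 and 6 h, with filled points where limma called it. Hilpda lies at 4.67 and 3.65 at 3 and 6 h, and Plin2, Plin3, Plin5 and Cidec are filled at 6 h between 1.36 and 2.58.

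Between successive times, 2 of 10 members were called from 1 to 3 h after PH (Plin2 and Plin5, above), against 1.69% of all genes. From 3 to 6 h after TCP 2 of 10 were called (Plin3 and Plin5), against 0.9%. From 3 to 6 h after PH limma called 0 members (4 at an unadjusted p under 0.05, where 22.2% of all genes were), against 4.73% of all genes called, and from 1 to 3 h after TCP 0 members (3 at an unadjusted p under 0.05, where 10.2% of all genes were), against 0.21% called. Some steps rested on single arrays. Without PH 3 h replicate 2, the step from 1 to 3 h after PH was called also for Hilpda (4.18, limma adjusted p = 0.00499), Cidec (3.53, limma adjusted p = 0.000435) and Pnpla2 (0.83, limma adjusted p = 0.0239), and the difference between PH and TCP at 3 h was called also for Cidec (3.49, limma adjusted p = 0.000439) and Plin2 (1.60, limma adjusted p = 0.0193). Without PH 6 h replicate 2, the step from 3 to 6 h after PH was called for Plin2 (1.61), Cidec (2.60), Pnpla2 (0.82) and Pnpla3 (-2.04), and PH and TCP at 6 h also differed in Pnpla2 (0.78) and Pnpla3 (-2.31). Without PH 3 h replicate 3, Plin2 (1.82) and Cidec (2.78) were called from 3 to 6 h after PH.

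**Figure D5:**
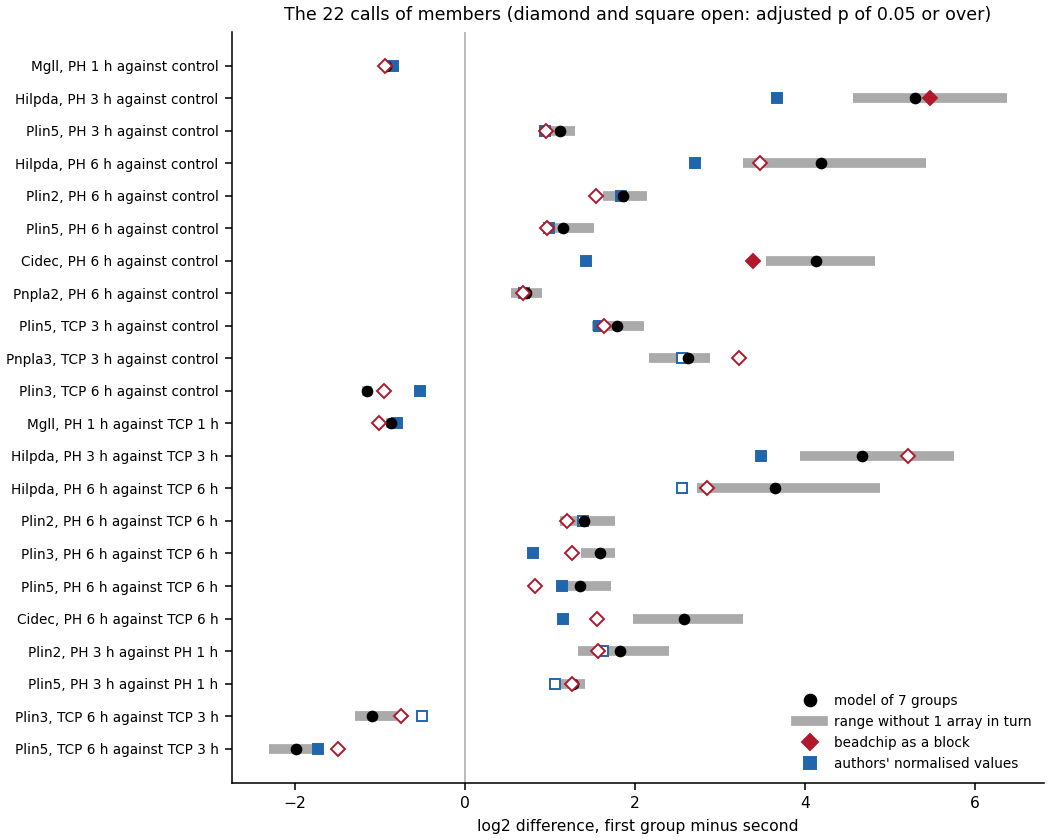
Log2 difference (x axis) of the 22 calls of members (y axis) in the model of 7 groups (black), over the fits without 1 array (grey bar), with the beadchip as a block (red diamond) and on the authors' normalised values (blue square), where open symbols have an adjusted p of 0.05 or over. Each call keeps its sign throughout, and the filled red diamonds are Hilpda at 3 h and Cidec at 6 h after PH.

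The members' profiles over the 21 arrays are given as a description, since the arrays share groups and beadchips. Plin2 and Cidec had a Pearson correlation of 0.894, Plin2 and Pnpla2 0.802, and Hilpda and Cidec 0.697, while Cideb and Cidec had -0.791. The genes most like Hilpda were Egr2 (0.960), Dusp5 (0.954) and Ppl (0.954). Those most like Plin2 were Slc22a5, Casp8 and Ppp2r2d (0.904 to 0.923), those most like Cidec were Hccs, 2010003K11Rik and Slc10a3 (0.927 to 0.936), and those most like Pnpla2 were Snhg5, Nepro and Gpat3 (0.847 to 0.897). Plin5 was most like Zbtb16 (0.840), the perilipin Plin4 (0.818) and Eif5a (0.810), and Pnpla3 most like Prune2 (0.774), the lipogenic gene Thrsp (0.769) and Prep (0.755).

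Other genes of droplet formation and lipid turnover were taken from lists. Of 14 other droplet coat and assembly genes 11 were tested. At 3 h after PH 1 was higher and 1 lower, at 6 h 2 higher and 1 lower, and after TCP 1 higher, 1 higher and 0 called at 1, 3 and 6 h. Of all genes, 7.43% and 20.8% were called at 3 and 6 h after PH. After TCP it was 0.184%, 1.22% and 5.31% at 1, 3 and 6 h. Plin4, a perilipin known from adipose tissue and muscle, rose by 3.52 (SE 0.65, limma adjusted p = 0.00231) and 3.55 (SE 0.65, limma adjusted p = 0.000777) at 3 and 6 h after PH and by 3.48 (SE 0.65, limma adjusted p = 0.0317) and 2.98 (SE 0.65, limma adjusted p = 0.0289) at 1 and 3 h after TCP. With the block these were 3.47, 3.09, 2.80 and 2.56, of which the PH values were called, and within a beadchip 3.24 and 3.97, 3.42, 3.31 and 2.20. On the authors' values the changes were smaller, at 1.19 (limma adjusted p = 0.0517), 1.08 (0.0352), 0.99 (0.4) and 0.80 (0.302), of which the PH 6 h value was called. Plin4 was detected on 17 of the 21 arrays, and no linear fold is given for it. The TCP 1 h call held in 0 of the 6 fits without 1 array, the TCP 3 h call in 1 (without TCP 3 h replicate 1), and the PH calls in all 6. Rab18, a GTPase of the droplet surface, rose by 0.95 (block 0.93, within a beadchip 0.80, held in 6 of 6 fits without 1 array) and Ldah, a droplet hydrolase, fell by 0.83 (block -0.71, not called, within a beadchip -0.87) at 6 h after PH. The Ldah call held in 3 of 6 fits without 1 array (-0.99 to -0.58) and ended without control replicate 2 (-0.76), control replicate 3 (-0.80) or PH 6 h replicate 1 (-0.58). Its fall of 0.82 at 3 h after PH (limma adjusted p = 0.0432) held in 1 of 6, without PH 3 h replicate 2.

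Of 13 other neutral lipid hydrolases and co-activators 12 were tested, and 1 was higher and 1 lower at 6 h after PH, 1 higher at 3 h and 1 higher at 6 h after TCP. Of all genes, 20.8% were called at 6 h after PH and 1.22% and 5.31% at 3 and 6 h after TCP. Abhd5, the co-activator of PNPLA2, rose by 0.89 (SE 0.21, limma adjusted p = 0.0046) at 6 h after PH. After TCP it rose by 0.98 (SE 0.21, limma adjusted p = 0.0253) at 3 h and by 1.09 (SE 0.21, limma adjusted p = 0.00541) at 6 h. With the block these were 0.93 (called), 0.99 and 1.00 (not called), and within a beadchip 0.97, 0.99 and 0.99. The 3 h TCP call held in 0 of the 6 fits without 1 array, the other calls in all 6. Lipa, the lysosomal acid lipase, fell by 1.11 (SE 0.26, limma adjusted p = 0.00483) at 6 h after PH, with -0.95 under the block, not called, and -1.01 within a beadchip. Of 8 genes of triglyceride synthesis and export 6 were tested. Dgat2, which completes triglyceride synthesis, fell by 0.96 (SE 0.17, limma adjusted p = 0.000763, within a beadchip -0.83, with the block -0.93 at limma adjusted p = 0.0168) at 6 h after PH. Mttp, which loads triglyceride on lipoproteins, was called higher 6 h after TCP at a change of 0.79 (SE 0.20, limma adjusted p = 0.0292, within a beadchip 0.85, with the block 0.96 at limma adjusted p = 0.126), a call held in 1 of 6 fits without 1 array (without TCP 6 h replicate 1). Of 12 genes of the fasting and PPAR alpha response 8 were tested, with 1 lower at 1 h after PH (Angptl4), 1 higher at each of 3 and 6 h after PH (Pdk4) and none at the 3 times after TCP (limma). The median change of these 4 lists at 6 h after PH was -0.18, -0.17, -0.02 and 0.39 in the order given, beside -0.08 for all genes and 0.58 for the members.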

How the data were processed

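Liver RNA of 21 mice was hybridised to Illumina beadchips, 1 array per mouse. The labels name the MouseRef-8 beadchip, while the deposited table holds 45281 probes, as many as the WG-6 beadchip has according to the methods section. The authors deposited the BeadStudio signal intensity of each probe, not normalised between arrays, with a detection p-value, and separately log2 values that they had quantile normalised. The detection p-values deposited by the authors served to call a probe detected at p under 0.05. The neqc function of limma 3.58.1 (R 4.3.3) then corrected the background, added an offset of 16, quantile normalised and took log2. The 17970 probes detected on at least 3 arrays and annotated with 1 gene symbol entered the tests, and each of 11442 genes was represented by its brightest probe. Of 45281 probes, 34885 had 1 symbol, 18 several and 10378 none. The 7 groups, taken from the labels, entered 1 limma model with default empirical Bayes moderation, from which came 13 comparisons and the F tests over the times of each treatment. Promoters came from RefSeq (GRCm38.p6).

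The members, the lists of other genes and the motifs were chosen with earlier results of these data known. All 10 members are named. Of the other lists of lipid genes, at most 4 called genes each could be named, largest change first, and for each member the 3 genes with the highest correlation over the arrays were found. Alternatives were no background correction, an offset of 50, median scaling, the authors' normalised values, no filter on detection, the filter of the methods (a median signal over 300 and a 1.5-fold change in 20% of arrays), the mean of a gene's probes, a fit of only the groups compared, the beadchip or the replicate number as a block, each beadchip alone, each array left out and no minimum change. Trend and robust variances and each other probe of Hilpda, Plin5 and Mgll were added after seeing the data. The number of arrays limits the precision. The replicate numbers did not pair the arrays. Code was tested on simulated data.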

Additional observations from a re-analysis of the deposited data

Results flagged for a closer look

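Members of which the effects of PH and TCP at the same time differed by the test of the difference itself are listed here, as PH minus TCP on the log2 scale. Mgll differed by -0.87 at 1 h. Hilpda differed by 4.67 at 3 h and by 3.65 at 6 h. At 6 h Plin2 differed by 1.40, Plin3 by 1.59, Plin5 by 1.36 and Cidec by 2.58. PH and TCP arrays of the same time lay on different beadchips, so that treatment and beadchip cannot be told apart within a time, and none of the 7 differences was called with the beadchip as a block.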

How the results depend on the processing

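Of 2437 values of members recomputed under the alternatives, 2288 kept their side of the threshold, 120 lost a call, 29 gained one and 0 changed sign with a call. The counts of members called moved as follows. With the beadchip as a block they were 0, 1 and 1 for PH 1 h, 3 h and 6 h against control, 0 and 0 for TCP 3 h and 6 h, 0 for each of the 3 differences between PH and TCP, 0 for PH 3 h against PH 1 h and for TCP 6 h against TCP 3 h, and 2 (PH) and 0 (TCP) in the F tests. Within beadchip 1 they were 0 for TCP 3 h and TCP 6 h against control and for TCP 6 h against TCP 3 h, within beadchip 3 0 for PH 1 h and PH 3 h against control and for PH 3 h against PH 1 h, and within beadchip 4 0 for PH 3 h and PH 6 h against control, in fits with 1 control array each. On the authors' values they were 1 for TCP 3 h and 0 for TCP 6 h against control, 3 for PH 6 h against TCP 6 h, 0 for PH 3 h against PH 1 h, 1 for PH 6 h against PH 3 h, 1 for TCP 6 h against TCP 3 h and 2 in the TCP F test. Under the filter of the methods, which left 5 members, they were 0 for PH 1 h and 3 for PH 6 h against control, 0, 0 and 2 for the differences between PH and TCP, 1 for TCP 6 h against TCP 3 h and 3 in the PH F test. Fitting only the groups compared gave 2 for PH 1 h and 3 for TCP 6 h against control, 0 and 1 for the differences at 1 and 6 h, and 0 for PH 3 h against PH 1 h and TCP 6 h against TCP 3 h. Without a filter on detection there were 1 for TCP 3 h against control, 3 for PH 6 h against TCP 6 h and 0 for PH 3 h against PH 1 h. The mean of a gene's probes gave 1 for PH 3 h against control, 0 for PH 1 h against TCP 1 h and 1 for PH 3 h against PH 1 h. Without background correction there was 1 for each of PH 3 h against PH 1 h, PH 6 h against PH 3 h and TCP 3 h against TCP 1 h, and with an offset of 50 1 for PH 6 h against PH 3 h. Trend and robust variances, chosen after seeing the data, gave 1 for each of TCP 3 h against control, PH 3 h against PH 1 h, PH 6 h against PH 3 h and TCP 3 h against TCP 1 h. The cause was not tested for any of these. With the replicate number as a block (replicate block) 1 member was called for TCP 3 h against control, and no other count moved by over 1.5 times. The numbers did not pair the arrays, since deviations from the group means of arrays with the same number correlated at -0.16 to 0.25.

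In the fits without 1 array, the counts against control were 0 to 1 (PH 1 h), 1 to 3 (PH 3 h), 4 to 5 (PH 6 h), 0 to 1 (TCP 3 h) and 1 to 1 (TCP 6 h). The differences between PH and TCP gave 0 to 0 at 1 h, 1 to 3 at 3 h and 2 to 7 at 6 h. The steps gave 0 to 5 (PH 3 h against PH 1 h), 0 to 4 (PH 6 h against PH 3 h) and 1 to 2 (TCP 6 h against TCP 3 h), and the F tests 6 to 7 (PH) and 2 to 3 (TCP).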
